A study of Drosophila melanogaster with 6 samples.

Results

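The genes described here bind, store, move or sense copper, iron and zinc in Drosophila melanogaster. They are the metallothionein genes MtnA, MtnB, MtnC and MtnD, the metal-responsive transcription factor gene MTF-1, the ferritin genes Fer1HCH and Fer2LCH, and the transporter genes Mvl, Ctr1A and Ctr1B. A gene was read by the probesets whose only symbol in the platform annotation was its own, which gave 10 probesets for the 10 genes, 1 each, among 18952 probesets on the array. All 10 were kept, and 9 of them passed the filter on level.

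Metallothioneins are small cysteine-rich proteins that bind copper, zinc and cadmium and protect cells from an excess of them. Their genes respond to metal through MTF-1, which binds metal response elements in promoters. Insect ferritin is a secreted iron store built from heavy and light chains, and much of the larva's metal storage takes place in the midgut. Copper enters cells through transporters of the Ctr1 family, and iron and manganese through Mvl, a homologue of the mammalian divalent metal transporter.

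RNA came from whole female third-instar larvae, with 50 larvae pooled in each preparation. The mutant larvae carried the roX1 allele SMC17A together with Df(1)52 and, per the labels, lacked both roX1 and roX2, long noncoding RNAs that act on the X chromosome of males; their levels were not analysed here, so these data do not check the genotypes. The control larvae had the same mutant X chromosome and in addition the transgene [hsp83-roX1+], in which the hsp83 promoter drives roX1. Both genotypes carried a further transgene marked w+, so the controls are not unmodified flies, and the labels do not describe other differences between the stocks. Each group had 3 arrays from independent preparations, and the series asks whether the loss of roX RNA changes gene expression in females.

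Values are log2 expression values made by robust multi-array average (RMA), and differences are mutant minus control, so a difference of 1 is a doubling of signal. The array medians lay between 5.41 and 5.45. A probeset's value depends on its probes as well as on the transcript, so levels are compared here between arrays and not between genes. The third-instar markers with a probeset, among them Lsp2 and the glue genes, had means over the 6 arrays of 13.8 to 14.42, and of 10 Y-linked and testis genes with a probeset, 8 were below the level filter, among them the Y-linked genes kl-3 and ORY at 2.68 to 2.95. The testis genes Mst87F and Mst98Ca were above it, Mst87F with 6.98, 7.20 and 7.32 in mutants and 7.87, 7.59 and 7.69 in controls (limma adjusted p = 0.176), and their part in the results below was not tested. Control replicate 1 and mutant replicate 3 stood apart from the rest, with limma array weights of 0.275 and 0.425, against 1.19 to 2.92 on the other 4 arrays. On control replicate 1 the muscle markers had a median of -0.63 from their means over the 6 arrays, and on mutant replicate 3 one of 0.46.

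No metal gene was called between roX mutant and control larvae. With limma and a threshold of 0.05 on the Benjamini-Hochberg adjusted p, 0 of 9 tested genes passed, against 62 of 11262 probesets on the whole array, which is 0.551%. An unadjusted limma p under 0.05 was also reached by 0 of 9, where the share over the whole array was 9.0%. The means were higher in the mutant for 5 genes and lower for 4. The median difference was 0.023 on the log2 scale, beside -0.0086 over all tested probesets. Its median size without regard to sign was 0.096, the same as over all tested probesets. The 95% intervals of the 9 differences all included 0. Their lowest limit was a 0.763-fold level in the mutant, for Fer2LCH, and their highest a 1.59-fold level, for MtnB, while those of most genes were narrower, such as 0.874 to 1.13 for MtnA and 0.905 to 1.16 for Fer1HCH. For each gene, a change of any size within its own interval is not excluded by 3 arrays a group.

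**Figure D1:**
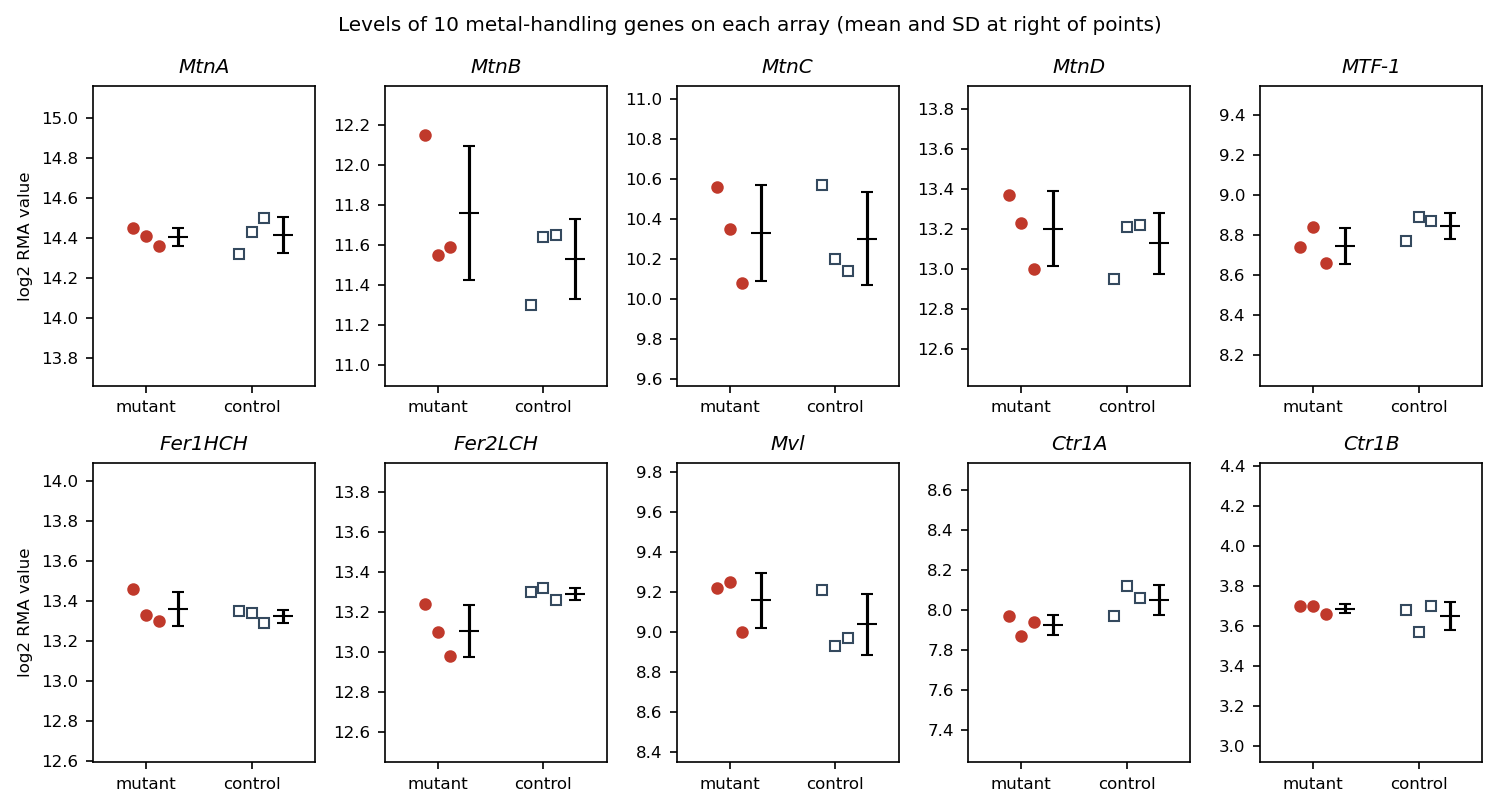
Log2 RMA values of the 10 metal genes on each array, with 3 mutant arrays (filled circles) left of 3 control arrays (open squares) and the mean and SD beside them; every panel spans the same 1.5 log2 units, centred on the gene's mean. Only for Fer2LCH do all 3 mutant values, 12.98 to 13.24, lie on one side of all 3 control values, 13.26 to 13.32.

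MtnA (probeset 1632873_at, chromosome arm 3R) read near the upper end of the scale on every array. Its values were 14.45, 14.41 and 14.36 in mutants and 14.32, 14.43 and 14.50 in controls. The groups overlapped fully, and the means of 14.41 ± 0.045 in mutants and 14.41 ± 0.092 in controls (SD, n = 3 each) differed by -0.0079 (SE 0.079, limma adjusted p = 0.982). Between 33 and 39 probesets per array read 14 or more while the highest value on the arrays was 14.50, so signals are crowded there. Whether a change in so bright a transcript, and with it the narrow interval of MtnA, would be compressed was not tested.

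MtnB (1630291_at, 3R), which encodes a second metallothionein, varied most among the 10 genes. It read 12.15, 11.55 and 11.59 in mutants and 11.30, 11.64 and 11.65 in controls. Mutant replicate 1 was high and control replicate 1 low, while the other 4 arrays lay within 11.55 to 11.65. The difference of 0.23 (SE 0.18, 95% interval -0.20 to 0.67, limma adjusted p = 0.737) was smaller than the mutants' own SD of 0.33. Without mutant replicate 1 it was 0.041, without control replicate 1 it was 0.12, and the range over all 6 arrays left out in turn was 0.041 to 0.34.

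MtnD (1631962_at, 3R) had 13.37, 13.23 and 13 in mutants, against 12.95, 13.21 and 13.22 in controls. As for MtnB, mutant replicate 1 was the highest array and control replicate 1 the lowest, and the groups overlapped. The difference was 0.070 (SE 0.13, limma adjusted p = 0.889).

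MtnC (1628446_at, 3R) read 10.56, 10.35 and 10.08 in mutants and 10.57, 10.20 and 10.14 in controls. The first replicate of each group was high, so that control replicate 1, the lowest array for the other 3 metallothionein genes, was the highest for MtnC. The means of 10.33 ± 0.24 in mutants and 10.31 ± 0.23 in controls (SD, n = 3 each) differed by 0.023 (SE 0.16, limma adjusted p = 0.973).

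MtnB, MtnC and MtnD lie close together on 3R in the RefSeq gene table of Release 6, with 5 protein-coding genes between MtnB and MtnC and 3 between MtnB and MtnD, while 1262 lie between MtnA and MtnB. Over the arrays MtnB and MtnD had their highest and lowest values on the same arrays, and MtnC departed from them on control replicate 1. Centred on their means over the 6 arrays, MtnB, MtnC and MtnD were at 0.50, 0.24 and 0.20 on mutant replicate 1 and at -0.35, 0.25 and -0.21 on control replicate 1. MtnA moved less, between -0.094 and 0.090. The mean of the 4 centred values was 0.25, 0.0016 and -0.13 in mutants and -0.10, -0.015 and -0.0049 in controls. This mean was thus highest on mutant replicate 1, where MtnB weighed most, and near or below 0 on the other 5 arrays. Only MtnB and MtnD were themselves highest on mutant replicate 1. MtnA was highest on control replicate 3 (0.090) and MtnC on control replicate 1 (0.25). Whole larvae were measured, so fewer metal-storing cells and less RNA per cell cannot be told apart in any of these values.

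Among 9618 other tested probesets with 1 gene name, 5 were nearest to MtnB over the 6 arrays by the root-mean-square difference of centred values. These were ltl (0.0866), Cyp304a1 (0.0912), CG18094 (0.105), Pldn (0.113) and myo (0.116), where the median probeset was at 0.283 and a flat profile would be at 0.254. All of them were highest on mutant replicate 1 and lowest on control replicate 1, and none was called (limma adjusted p from 0.629 to 0.702). The 5 were chosen for this likeness, which rests on 6 arrays and chiefly on those at the extremes.

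**Figure D2:**
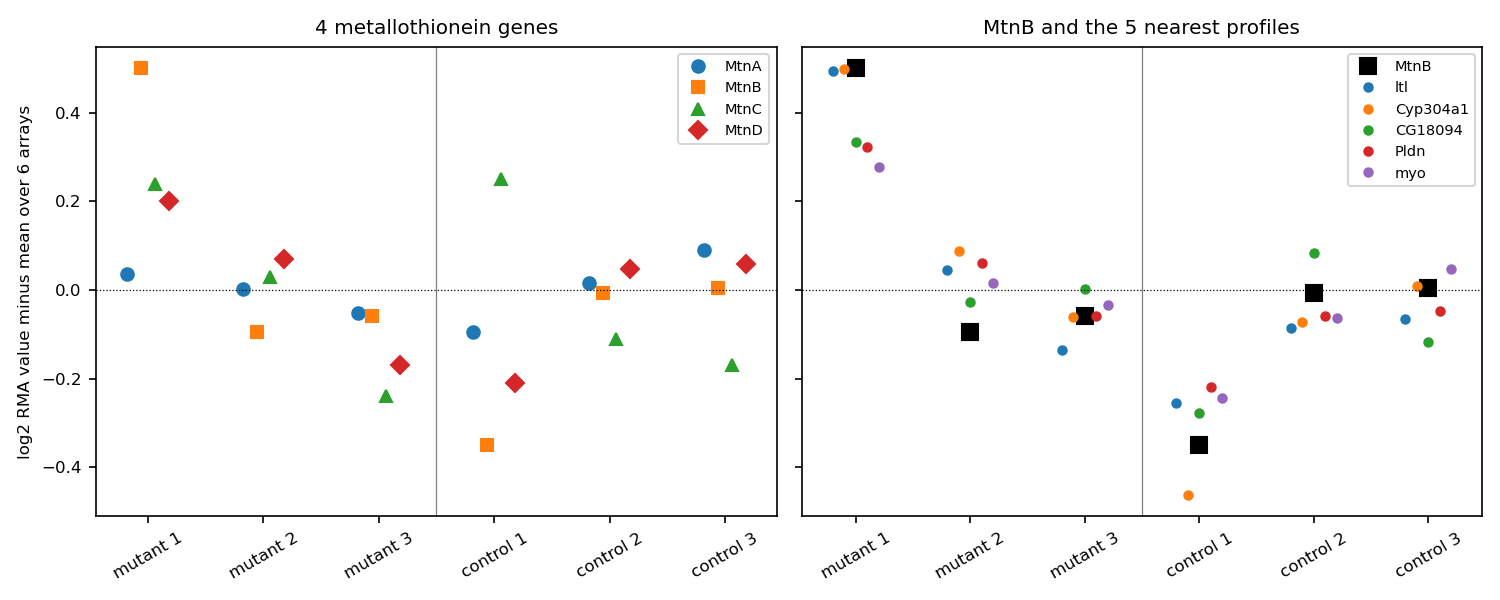
Log2 RMA values centred on each gene's mean over 6 arrays, by array, with mutants left of controls. The left panel shows the 4 metallothionein genes, with MtnB at 0.50 on mutant replicate 1 and MtnC opposite to the others on control replicate 1; the right panel shows MtnB (black squares) with the 5 probesets nearest to it.

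MTF-1 (1631619_a_at, 3L), the transcription factor through which metal induces the metallothionein genes, read 8.74, 8.84 and 8.66 in mutants and 8.77, 8.89 and 8.87 in controls. Mutant replicate 2 lay among the controls. The difference was -0.096 (SE 0.081, 95% interval -0.29 to 0.095, limma adjusted p = 0.746).

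Fer1HCH (1633034_s_at, 3R) encodes the ferritin heavy chain, which carries the ferroxidase activity. Its values were 13.46, 13.33 and 13.30 in mutants, against 13.35, 13.34 and 13.29 in controls. Apart from mutant replicate 1 all arrays lay within 13.29 to 13.35, and the difference was 0.037 (SE 0.076, limma adjusted p = 0.905).

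Fer2LCH (1636186_s_at, 3R) encodes the light chain and is the direct neighbour of Fer1HCH on the chromosome. It read 13.24, 13.10 and 12.98 in mutants and 13.30, 13.32 and 13.26 in controls, so each mutant array was below each control array. The mean was 13.11 ± 0.13 in mutants and 13.29 ± 0.029 in controls (SD, n = 3 each), a difference of -0.18 (SE 0.087, 95% interval -0.39 to 0.025), or a 0.881-fold level. This did not pass (limma adjusted p = 0.607). It was the only one of the 9 tested genes whose groups did not overlap; separate groups were found for 16.3% of all tested probesets and, with the mutant as the lower group, for 9.33%.

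The chains are built into one complex, and their difference on each array was taken after the values had been seen. Fer1HCH minus Fer2LCH was 0.22, 0.22 and 0.32 in mutants and 0.047, 0.026 and 0.031 in controls. The mutant values were all above the control values, with means of 0.25 ± 0.057 and 0.035 ± 0.011 (SD, n = 3 each), and differed by 0.22 (exact two-sided permutation p = 0.1, the smallest that 3 against 3 allows). Leaving out any 1 array gave 0.19 to 0.24. Since Fer2LCH was already known to be lower on each mutant array, this restates that observation against Fer1HCH and is a description, not separate evidence. Of the RNA quality controls, actin differed between the groups and GAPDH did not. The actin control probesets had an excess of 3' over 5' signal of 0.77, 0.94 and 0.90 in mutants, against 0.72, 0.70 and 0.74 in controls (exact two-sided permutation p = 0.1). The corresponding GAPDH difference was 1.38 ± 0.13 in mutants and 1.38 ± 0.033 in controls (SD, n = 3 each), and these groups overlapped and differed by 0.0057. The part of RNA quality in the ferritin difference was not tested. By their suffix, both ferritin probesets and those of Mvl and MTF-1 may read more than 1 transcript.

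**Figure D3:**
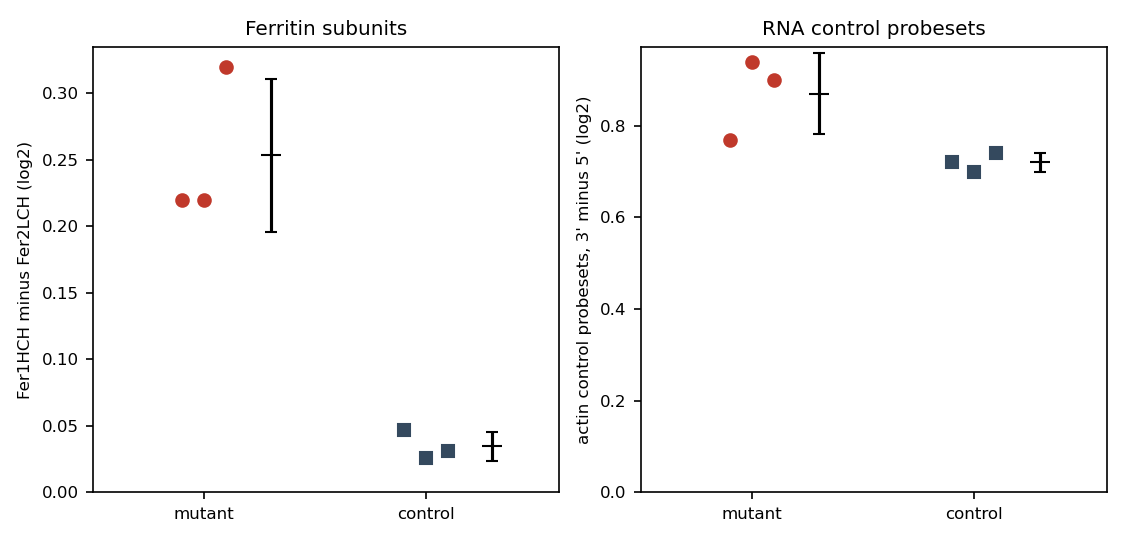
Left, Fer1HCH minus Fer2LCH in log2 units on each of 3 mutant and 3 control arrays, with mean and SD: 0.22 to 0.32 in mutants and 0.026 to 0.047 in controls. Right, the 3' minus 5' difference of the actin control probesets on the same arrays, 0.77 to 0.94 in mutants and 0.70 to 0.74 in controls. The GAPDH control probesets, whose groups overlapped, are not shown.

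Mvl (1624392_s_at, 3R), the iron and manganese transporter gene, had 9.22, 9.25 and 9.00 in mutants and 9.21, 8.93 and 8.97 in controls. Control replicate 1 lay with the higher mutant arrays, and mutant replicate 3 with the lower controls. The difference was 0.12 (SE 0.11, 95% interval -0.15 to 0.38, limma adjusted p = 0.776). It ran from 0.065 without control replicate 2 to 0.21 without control replicate 1, and was 0.24 with array weights.

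Ctr1A (1629938_at), a copper importer gene of the plasma membrane, is the only X-linked gene of the 10. It read 7.97, 7.87 and 7.94 in mutants and 7.97, 8.12 and 8.06 in controls. Control replicate 1 overlapped the mutants, and the difference was -0.13 (SE 0.076, 95% interval -0.31 to 0.055, limma adjusted p = 0.675). The median difference of 1532 tested X-linked probesets with 1 gene name was -0.039, beside -0.0014 for 7990 on arms 2L, 2R, 3L and 3R. With the lists below, 8 X-linked metal and antioxidant genes were tested, 4 higher and 4 lower, between -0.13 for Ctr1A and 0.14 for the transferrin gene Tsf1, and none was called (smallest limma adjusted p = 0.675).

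Ctr1B (1626388_at, 3R), a second copper importer gene that is known to be induced when copper is scarce, was below the level filter and entered no test. Its values were 3.70, 3.70 and 3.66 in mutants and 3.68, 3.57 and 3.70 in controls, where the lowest mean of a tested probeset was 4.51. The third family member, Ctr1C, was also below the filter, with 3.56, 3.75 and 3.67 in mutants and 3.74, 3.58 and 3.79 in controls. Neither pair of groups separated at this level.

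**Figure D4:**
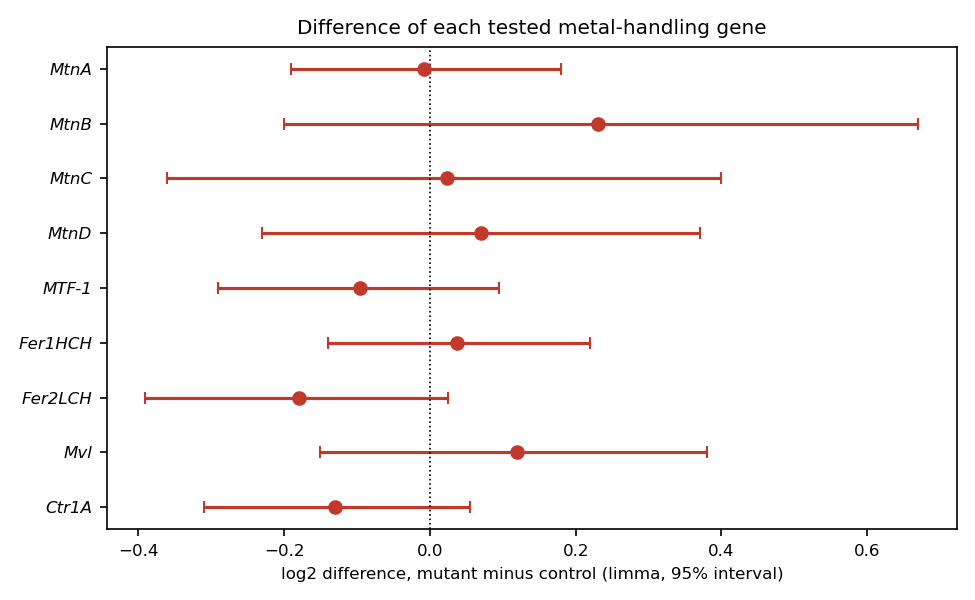
Log2 difference, mutant minus control, of the 9 tested metal genes with 95% intervals from limma (n = 3 arrays per group). Every interval includes 0; that of MtnB is the widest, -0.20 to 0.67, and Fer2LCH lies lowest at -0.18.

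The other lists, of metal handling and of antioxidant enzymes, gave the same count of calls. Of 74 listed names, some of them spellings of 1 gene, 58 had a probeset with 1 gene name. With each gene read by its brightest probeset, 51 were tested, 11 of them from the antioxidant list, and 0 were called with limma. An unadjusted p under 0.05 was reached by 7 of 51, against 9.0% of the array, and the groups did not overlap for 14 of 51, against 16.3%. Their median difference was 0.040, with 33 genes higher and 18 lower in the mutant. The metallothionein genes MtnE and MtnF had no probeset under their names and were not analysed here.

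Zinc transporters held the largest differences of these lists in each direction. Of 14 tested genes 3 had an unadjusted p under 0.05 (9.0% of the array) and 5 had groups that did not overlap (16.3% of the array), and the median difference was 0.038. ZnT35C, a zinc transporter gene of the Malpighian tubules, read 7.77, 7.70 and 7.94 in mutants and 7.26, 7.28 and 7.38 in controls. The groups were well apart, and the difference was 0.50 (SE 0.089), yet it did not pass (limma adjusted p = 0.102). With array weights it was called, at 0.41 (limma adjusted p = 0.0397), but that setting raised the calls over the whole array from 62 to 232. Leaving out any 1 array gave 0.43 to 0.55, and over all alternatives the limma adjusted p lay between 0.0397 and 0.336.

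The other tubule markers with a probeset had smaller differences, which did not pass. Irk3, a potassium channel gene, had -0.039, the water channel gene Drip 0.12 and the proton pump gene Vha55 -0.083 (limma adjusted p from 0.746 to 0.914). Zip71B, a zinc importer gene, read 8.54, 8.41 and 8.30 in mutants and 8.23, 8.19 and 8.03 in controls, a difference of 0.27 (limma adjusted p = 0.478). Zip102B, a transporter gene of the same family on chromosome 4, read 8.72, 8.38 and 8.24 in mutants and 8.95, 8.97 and 8.76 in controls, a difference of -0.44 (limma adjusted p = 0.396). In these groups too no value overlapped, and the directions were opposite.

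Iron genes outside the ferritins had a median difference of 0.048 over 13 tested, of which 2 had an unadjusted p under 0.05 (9.0% of the array) and 5 had groups that did not overlap (16.3%). The mitochondrial iron carrier gene mfrn read 8.60, 8.58 and 8.56 in mutants and 8.74, 8.78 and 8.73 in controls. The spread within each group was small, and the difference of -0.17 did not pass (SE 0.065, limma adjusted p = 0.520). Fdx2 and Fdx1, which encode mitochondrial ferredoxins, each had a difference of 0.20 (limma adjusted p = 0.520 and 0.572). The iron regulatory protein genes Irp-1A and Irp-1B had -0.057 and 0.11, and Fer3HCH, the mitochondrial ferritin gene, was below the filter, at 3.54, 3.59 and 3.62 in mutants and 3.48, 3.23 and 3.56 in controls.

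Haem synthesis uses iron in its last step, and 6 of its genes were tested, with a median difference of 0.061, 2 unadjusted p-values under 0.05 (9.0% of the array) and 3 genes whose groups did not overlap (16.3%). Pbgs, which encodes the enzyme that joins aminolevulinate into porphobilinogen, read 9.56, 9.52 and 9.43 in mutants and 8.91, 9.11 and 9.21 in controls. Its difference of 0.43 (SE 0.098) did not pass (limma adjusted p = 0.211). With array weights, where 232 probesets of the whole array were called against 62, Pbgs was called at 0.37 (limma adjusted p = 0.0493). Over all alternatives its limma adjusted p ran from 0.0493 to 0.694. Coprox, the coproporphyrinogen oxidase gene, had -0.21 (limma adjusted p = 0.478), and the ferrochelatase gene FeCH 0.13 on its brightest probeset (limma adjusted p = 0.648). The dimmer FeCH probesets had 0.083 and -0.18, so they disagree in sign.

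Copper genes beyond the Ctr1 family and antioxidant enzymes had no unadjusted p under 0.05. Over 7 copper genes the median was 0.036, with 0.22 for the cytochrome oxidase assembly gene Cox11, 0.15 for Scox and -0.12 for the copper pump gene ATP7 (limma adjusted p from 0.710 to 0.746). With 1 array left out, Cox11 ran from 0.058 to 0.35 and Scox from 0.027 to 0.21, both lowest without control replicate 1. Over 11 antioxidant genes it was -0.034, and the smallest p-values belonged to Gclm (0.30), Prx3 (0.19) and GstS1 (0.11), with limma adjusted p from 0.590 to 0.763.

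**Figure D5:**
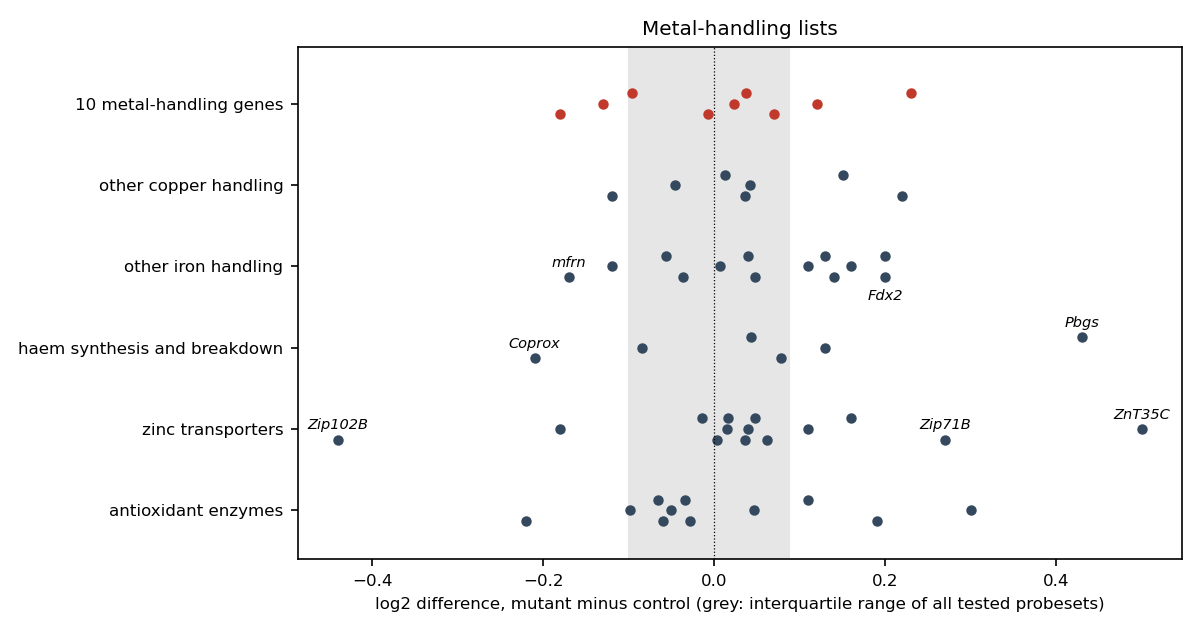
Log2 difference, mutant minus control, of each tested gene in the metal and antioxidant lists (a point per gene), with the interquartile range of all tested probesets, -0.10 to 0.087, in grey. Names mark genes with an unadjusted p under 0.05, none of which was called; ZnT35C at 0.50 and Zip102B at -0.44 lie outermost.

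Markers of the tissues that hold metal are given beside these values. Over the whole array 0.551% of probesets were called. Of 12 tested midgut digestion genes 1 was called, the lysozyme gene LysX, with a difference of -1.86 (limma adjusted p = 0.00152). An unadjusted limma p under 0.05 was reached by 4 of 12, against 9.0% of the array. These were LysX, betaTry (-0.76), LysS (-0.63) and Jon25Bii (-0.47), all lower in the mutant. The list's median difference was -0.18, and its mean level was 11.16 to 11.38 in mutants and 11.20 to 11.80 in controls. The 4 measured genes of the copper cell and acid region had mean levels of 7.92 to 7.97 in mutants and 7.59 to 8.0 in controls, lowest on control replicate 1. Of these, Vha100-4 and Vha36-3 were lowest on that array, at 7.0 and 6.60, while CAH2 (9.15) and Ptx1 (7.62) were not. MtnA, MtnB and MtnD were lowest on the same array and MtnC was highest there. Between the genotypes, Ptx1 read 7.41, 7.37 and 7.38 in mutants and 7.62, 7.52 and 7.64 in controls. Its difference of -0.20 did not pass (limma adjusted p = 0.459). Of the 4 genes, it was the 1 with an unadjusted limma p under 0.05 (9.0% of the array). It was also the 1 whose groups did not overlap (16.3% of the array). Vha100-4, Vha36-3 and CAH2 had differences of 0.33, 0.14 and 0.079. Fat body markers had mean levels of 13.05 to 13.30 in mutants and 12.95 to 13.02 in controls, with 0 of 6 called. An unadjusted limma p under 0.05 was reached by 2 of 6 (9.0% of the array). FASN1, Desat1 and Fbp1 had differences of 0.47, 0.43 and 0.28, while Lsp2, Fbp2 and apolpp had only 0.026, 0.030 and 0.073. Hemocyte markers had 8.72 to 8.82 in mutants and 8.91 to 9.08 in controls, with 0 of 7 tested genes called. Here 2 of 7 had an unadjusted limma p under 0.05 (9.0% of the array). The crystal cell genes PPO1 and PPO2 had differences of -0.81 and -0.98, and the other 5 lay between -0.13 for NimC1 and 0.11 for eater. The part of tissue make-up in the metal gene values was not tested.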

How the data were processed

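Total RNA of 6 larval preparations was hybridised to Affymetrix Drosophila Genome 2.0 arrays. The deposited values are log2 values that the authors background-corrected, normalized and summarized by RMA, per the labels' design text, with no version given. Because RMA equalizes the arrays' distributions, these values cannot show a shift common to most genes. The table holds no present or absent calls, so a filter on level was used: 183 control probesets and then the dimmest 40%, by mean over the 6 arrays, were dropped, and 11262 remained. Probesets were named by the platform annotation (13647 with 1 symbol, 402 with several, 4720 not listed), and 13544 were matched by gene number to RefSeq Release 6 plus ISO1 MT for symbols, arm and gene order.

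Differences were tested with limma 3.58.1 in R 4.3.3 (lmFit, eBayes, two-sided, Benjamini-Hochberg over all probesets tested), which was checked on simulated data. No replicate block was used. Single within-array differences had exact permutation tests in scipy 1.17.1. Members and lists were chosen with earlier results of these data known, so no list was tested. Named outside the members were, per list, called genes and up to 3 with the smallest p, tissue markers, and the 5 profiles nearest to the widest-ranging member; Irp-1A, Irp-1B, Fer3HCH, Ctr1C and Tsf1 were named for their family and chosen after their values were seen. Alternatives were other filters, scalings, weights, a variance trend, the block, linear means and each array left out. Precision is limited by 3 arrays a group.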

Additional observations from a re-analysis of the deposited data

How the results depend on the processing

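No metal-handling probeset was called under any of the 13 alternative fits (smallest limma adjusted p 0.158, for Mvl), and their median difference stayed between -0.029 and 0.068. Over the whole array 62 calls became 27 with the 60% dimmest probesets left out, 232 with array weights and 28 under the replicate block, and between 12 and 84 with 1 array left out (17 without mutant replicate 1, 12 without mutant replicate 2, 27 without mutant replicate 3, 84 without control replicate 1, 31 without control replicate 2 and 20 without control replicate 3); fewer samples or probesets enter some of these fits, and otherwise the cause was not tested. Calls in the other metal and antioxidant lists were 2 with array weights, ZnT35C and Pbgs, and 0 elsewhere. Differences near 0 changed sign: MtnA was 0.011 with arrays centred on their median and ran from -0.057 to 0.035 with 1 array left out, MtnC from -0.092 to 0.16, MtnD from -0.018 to 0.17 and Fer1HCH from -0.013 to 0.068. Of 118 values of single genes from the alternative fits, with the linear means left out of the count, 9 changed sign and 109 did not. Ctr1B, tested only without the filter, had a limma adjusted p of 0.936. Whether the replicate numbers pair the samples is not settled. Deviations of same-numbered arrays correlated at 0.053, -0.19 and 0.32 for replicates 1, 2 and 3. Only the replicate 3 arrays correlated best with their own number, and correlations over 3 arrays a group cannot exclude a shared batch. No metal gene was called with or without the block. Since there was no call to lose, and fewer probesets of the whole array were called under the block, this does not test the pairing.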
